A study of Homo sapiens with 4 samples.

Results

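IFNB1, 4 IFIT genes (IFIT1, IFIT2, IFIT3 and IFIT5), OASL, RSAD2, ISG20, CXCL10 and CXCL11 are genes that the transcription factor IRF3 can switch on directly, without interferon acting on the cell first. They were chosen by name, and the choice was made with their signals in PC3 cells known, because several of them were higher after ESS2 knockdown while most interferon-stimulated genes were lower. They are 10 of the 25121 genes with a symbol on the arrays and are read by 12 probes, IFIT2 and CXCL10 by 2 probes each and the others by 1. RNA was measured on 4 arrays of 1 colour, with 1 array for each of 4 groups of cells. PC3-shC and DU145-shC cells carried an shRNA against luciferase as the control, and PC3-shESS2 and DU145-shESS2 cells carried an shRNA against ESS2, a nuclear protein found with the spliceosome. PC3 and DU145 are established androgen-independent prostate cancer lines, and the labels name no further agent. The labels describe delivery by lentivirus for both lines, while the methods describe, for PC3 cells, plasmid transfection and puromycin selection for stable expression of the shRNA. The labels name 1 shRNA target per group and give no separate cultures, so differences between groups could not be set against replicates, precision is limited by having so few arrays, and no p-value is given.

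Cells that sense viral RNA or DNA pass the signal through adaptors such as MAVS and STING1 to the kinase TBK1, which phosphorylates IRF3. IRF3, together with NF-κB at some promoters, then switches on IFNB1, the gene of interferon-β, and a set of antiviral genes. Secreted interferon acts through IFNAR1 and IFNAR2 on JAK kinases and STAT factors, and a complex that holds STAT2 and IRF9 switches on a wider set of interferon-stimulated genes and many of the genes that IRF3 also controls. Tumour lines of epithelial origin differ in how much of either arm is active without infection.

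The stretches of promoter that hold the letters of these factors are shown because they differ from gene to gene. They come from RefSeq, build GRCh38.p14, and are written 5′ to 3′ on the strand of the gene. Searched on both strands were GAAANNGAAA, the paired GAAA of an interferon-stimulated response element, the shorter AANNGAAA, a core bound by IRF factors that every paired match holds within it, and GGGANNTTCC, a κB-type motif. Capitals mark paired GAAA and κB-type matches, and in IFNB1 the AANNGAAA cores. The stretches lie at chr9:21077987-21078043 on the minus strand (IFNB1), chr10:89392495-89392541 on the plus strand (IFIT1), chr10:89327829-89327896 on the plus strand (IFIT3, start 1), chr10:89414511-89414567 on the plus strand (IFIT5), chr2:6877620-6877653 on the plus strand (RSAD2, start 2), chr15:88638935-88638968 on the plus strand (ISG20), chr4:76023653-76023730 on the minus strand (CXCL10) and chr4:76036125-76036158 on the minus strand (CXCL11).
IFNB1: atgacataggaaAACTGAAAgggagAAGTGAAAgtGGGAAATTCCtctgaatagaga
IFIT1: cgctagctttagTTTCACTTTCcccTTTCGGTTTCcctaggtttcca
IFIT3: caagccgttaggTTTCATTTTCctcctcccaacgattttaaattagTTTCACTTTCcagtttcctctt
IFIT5: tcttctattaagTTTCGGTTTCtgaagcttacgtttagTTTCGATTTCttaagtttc
RSAD2: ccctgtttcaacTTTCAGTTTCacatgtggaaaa
ISG20: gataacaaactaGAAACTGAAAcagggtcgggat
CXCL10: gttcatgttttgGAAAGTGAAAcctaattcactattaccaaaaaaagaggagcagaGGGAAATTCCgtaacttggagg
CXCL11: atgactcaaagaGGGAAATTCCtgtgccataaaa

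In IFNB1 the pair of cores, from −89 to −82 and from −76 to −69 counted from the annotated start, lay just upstream of the κB-type match at −66 to −57. The window of IFNB1 held no paired GAAA match. CXCL10 held a paired GAAA match from −221 to −212 and a κB-type match from −177 to −168, and CXCL11 held a κB-type match from −76 to −67 and no paired match. IFIT1, IFIT3 and IFIT5 each held 2 paired matches in a single window. Windows for IFIT2 and OASL were not analysed here. Of the 8 members with a window, which have 10 windows between them, 6 held a paired match, 3 a κB-type match and 8 a core (counted inside paired matches too), where 3.02%, 1.40% and 20.3% of the 35116 windows of all genes did. The members are counted per gene and the shares per window, so a gene with 2 windows has 2 chances of a match. A window with 2 or more paired matches was found in 0.225% of all windows. The members were chosen as genes that IRF3 can switch on, so their share with IRF letters is not independent of the choice. A match of letters is a description of the sequence and does not show that a factor binds there in these cells.

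The arrays carried 60901 non-control spots each, of which 50.8 to 52.6% were well above background and 0 were saturated. The 75th percentile of the processed signal, to which each array was scaled, lay between 212 and 290. Signals are given as the scanner software processed them, and log2 ratios (shESS2 over shC of the same line) are after this scaling. Among probes spotted 10 times, the log2 ratio between single spots had a median SD of 0.084 in PC3 cells and 0.082 in DU145 cells, and 0.20 and 0.25 among the few such probes with a mean signal under 100, which covers differences between spots only. The highest SD was 0.32 and 0.31, so the ratios past 2-fold are larger than this spread, though none of it comes from replicate cells. ESS2 itself had signals of 133 in PC3-shC, 53.6 in PC3-shESS2, 85.7 in DU145-shC and 17.3 in DU145-shESS2 cells, the lower signal after knockdown in both lines. Epithelial markers were well above background on every array (5 of 5). Their summed signal was 227113 and 246212 in PC3-shC and PC3-shESS2 cells and 56456 and 62537 in the DU145 cells, and 1 of the 5, EPCAM, was lower past 2-fold in DU145-shESS2 cells, with signals of 2120 and 357 and a log2 ratio of −2.61. KLK3, a marker of androgen-responsive prostate cells, was well above background on no array. Of 5 leukocyte markers on the array, 3 or 4 were well above background, with a summed signal of 314 in PC3-shC and 139 in PC3-shESS2 cells, and CD3E was below on every array. Of 3 plasmacytoid dendritic markers, which mark cells known for making interferon, LILRA4 alone was above background in PC3 cells, and the summed signal was 16.1 and 14.2. In DU145 cells the summed signals were 314 and 366 for the leukocyte list, and 55.0 and 24.5 for the plasmacytoid dendritic list. Of 3 fibroblast markers COL1A1 alone was above background on each array, and the summed signals ran from 79.4 to 270 (PC3-shC). What part these markers have in the results was not tested. In such bulk RNA, fewer cells that express a gene and less RNA per cell cannot be told apart.

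In PC3 cells RSAD2, OASL, ISG20, IFIT2 and both chemokines were higher after ESS2 knockdown, by 4.51-fold (IFIT2) to 24.0-fold (RSAD2), and IFNB1 was higher by at least 13.2-fold. IFIT3 was higher by 1.63-fold, IFIT1 was nearly equal on the 2 arrays, and IFIT5 was 2.17-fold lower. Past a 2-fold difference, 7 of the 10 were higher and 1 was lower, beside 3.88% of the 16764 genes compared that were higher and 3.87% that were lower. These values chose the members and are a description. The median log2 ratio of the 10 genes was 2.40, and that of all genes compared was −0.055. IFIT5, with a log2 ratio of −1.12, lay just past the 2-fold limit and IFIT3, with 0.70, was the nearest inside it.

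In DU145 cells OASL, IFIT2, IFIT3 and IFIT1 were higher after ESS2 knockdown, by 4.57-fold, 3.55-fold, 3.33-fold and 2.45-fold. ISG20 was 1.25-fold higher and IFIT5 was 1.22-fold lower. IFNB1, RSAD2, CXCL10 and CXCL11 were not well above background on either DU145 array and have no fold. Of the 6 members compared, 4 were higher past 2-fold and 0 were lower, beside 2.36% higher and 2.47% lower among the 16842 genes compared. The median log2 ratio of the 6 was 1.51, and that of all genes compared was −0.022. IFIT1, at 1.29, was the nearest past the limit and ISG20, at 0.32, the nearest inside it. The PC3 and DU145 arrays were on different slides and scans, so the line and the slide cannot be told apart in any difference between them.

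**Figure D1:**
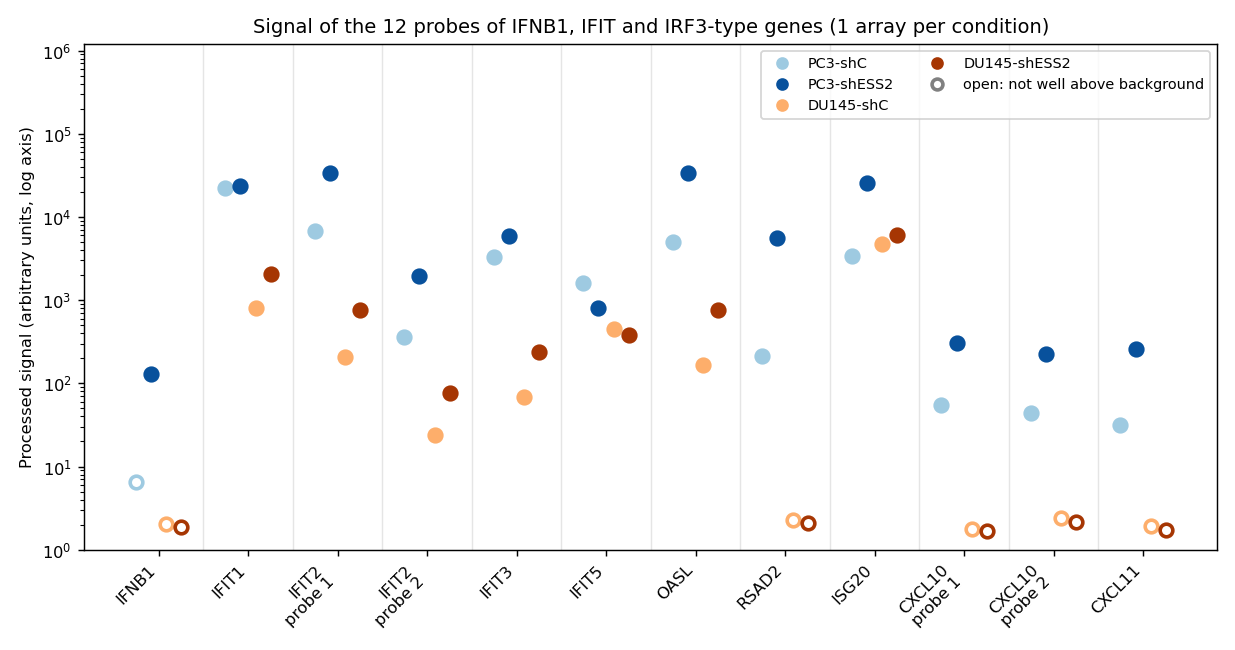
Processed signal (arbitrary units, log axis) of each of the 12 probes on the 4 arrays, 1 point per array and no error as each condition has 1 array. Open points were not well above background: IFNB1 is filled only in PC3-shESS2 cells at 130, and RSAD2 and the chemokines are open on both DU145 arrays. Heights may be compared within a probe only, and CXCL10 probe 2 is the one used for the gene.

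IFNB1, the gene of interferon-β, had signals of 6.56 in PC3-shC, 130 in PC3-shESS2, 2.04 in DU145-shC and 1.88 in DU145-shESS2 cells. Only the PC3-shESS2 signal was well above background. The level in PC3-shESS2 cells was at least 13.2-fold higher than in PC3-shC cells, with the dim array set to the lowest signal of a probe well above background there (8.94). On the log2 scale this was at least 3.72, a bound that the floor sets. With normexp background correction the log2 difference was 1.36, still past 2-fold and the lowest over the alternatives.

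IFIT2 and IFIT3, which bind partner IFIT proteins in antiviral complexes, were higher after knockdown in both lines. The brighter IFIT2 probe had signals of 6760 in PC3-shC, 33600 in PC3-shESS2, 208 in DU145-shC and 760 in DU145-shESS2 cells. Its log2 ratio was 2.17 in PC3 cells and 1.83 in DU145 cells. The other IFIT2 probe, with signals of 363, 1930, 23.8 and 75.8 on the same arrays, gave 2.27 and 1.63, the same direction in both lines. IFIT3 had signals of 3300 in PC3-shC, 5920 in PC3-shESS2, 68.9 in DU145-shC and 236 in DU145-shESS2 cells. Its log2 ratio was 0.70 in PC3 cells and 1.74 in DU145 cells, so that IFIT3 was past 2-fold in DU145 cells alone. The difference between the lines was not tested.

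IFIT1, which binds viral RNA that lacks the cap methylation of host mRNA, had signals of 22300 in PC3-shC, 23800 in PC3-shESS2, 810 in DU145-shC and 2040 in DU145-shESS2 cells. The PC3 arrays were nearly equal after scaling, with a log2 ratio of −0.05 that ran from −0.15 with scaling to the median to 0.07 with quantile normalization and so has no settled sign. In DU145 cells the log2 ratio was 1.29. IFIT5, an IFIT protein that binds RNA on its own, had signals of 1590 in PC3-shC, 809 in PC3-shESS2, 449 in DU145-shC and 380 in DU145-shESS2 cells, the lower signal after knockdown in each line. Its log2 ratios were −1.12 and −0.28. In PC3 cells it ended within 2-fold with quantile normalization, at −0.99, and at the limit with normexp background correction, at −0.999. The IFIT genes lie side by side on chromosome 10 and are related in sequence, and whether their probes share signal was not tested.

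OASL, a relative of the 2′-5′ oligoadenylate synthetases that lacks their enzyme activity, had signals of 5020 in PC3-shC, 33600 in PC3-shESS2, 164 in DU145-shC and 770 in DU145-shESS2 cells. Its log2 ratio was 2.60 in PC3 cells (6.07-fold) and 2.19 in DU145 cells (4.57-fold), the highest of the 6 members compared in DU145 cells and rank 44 of all genes compared there. RSAD2, which codes for the antiviral enzyme viperin, had signals of 212 in PC3-shC and 5600 in PC3-shESS2 cells, and of 2.29 and 2.12 in DU145-shC and DU145-shESS2 cells. Its PC3 log2 ratio of 4.58 was the 9th highest of all genes compared and the highest of the members with both arrays measured. ISG20, an exonuclease that degrades single-stranded RNA, had signals of 3380 in PC3-shC, 25900 in PC3-shESS2, 4710 in DU145-shC and 6040 in DU145-shESS2 cells. The log2 ratio of ISG20 was 2.80 in PC3 cells and 0.32 in DU145 cells.

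CXCL10 and CXCL11 code for chemokines that draw T cells through the receptor CXCR3. The CXCL10 probe used for the gene had signals of 44.0 in PC3-shC, 224 in PC3-shESS2, 2.39 in DU145-shC and 2.16 in DU145-shESS2 cells, a PC3 log2 ratio of 2.21. The other CXCL10 probe, with signals of 54.9 and 307 in the PC3 cells and 1.77 and 1.68 in the DU145 cells, gave 2.34 in PC3 cells. CXCL11 had signals of 31.4 in PC3-shC, 257 in PC3-shESS2, 1.91 in DU145-shC and 1.75 in DU145-shESS2 cells, a PC3 log2 ratio of 2.89 that was 1.77 with normexp background correction. Neither chemokine was well above background in DU145 cells. The receptors CXCR3 and ACKR3 had PC3 log2 ratios of −0.43 and −0.33, and DPP4, the peptidase that trims both chemokines, had 1.30.

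**Figure D2:**
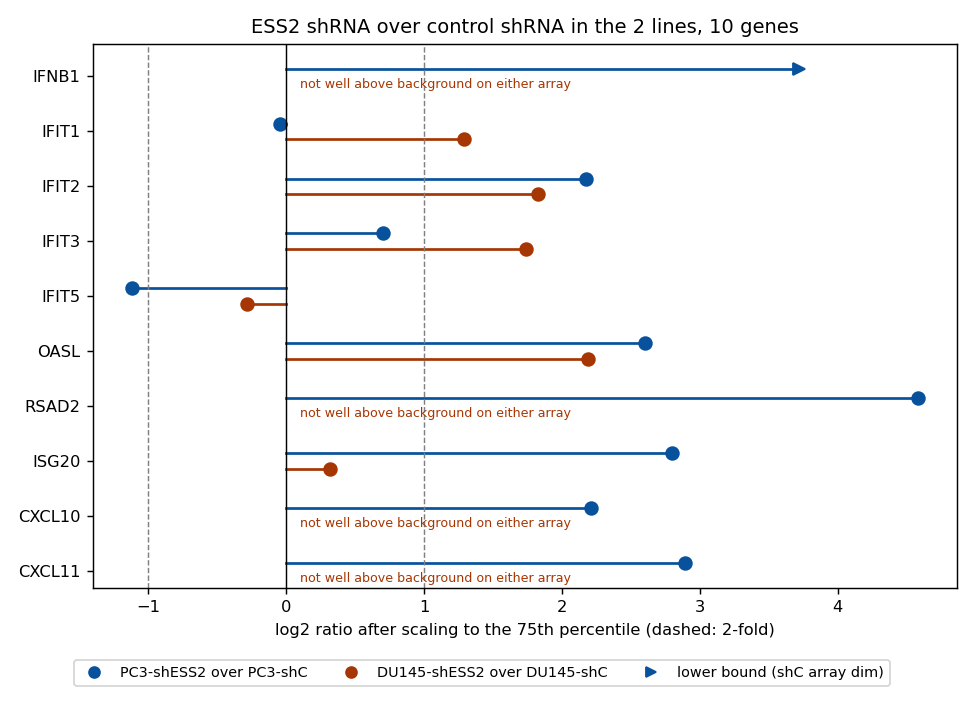
Log2 ratio of shESS2 over shC for the 10 genes in PC3 (blue) and DU145 (brown) cells, after scaling to the 75th percentile, with dashed lines at 2-fold and an arrow for the lower bound of IFNB1. OASL and IFIT2 are past 2-fold in both lines, IFIT1 and IFIT3 in DU145 cells alone, and ISG20 (higher) and IFIT5 (lower) in PC3 cells alone among the 6 genes with a ratio in each; each ratio is from 1 pair of arrays, so no error is drawn.

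The control cells of the lines started from different levels. After scaling, PC3-shC cells had 22.2 times the IFIT1 signal of DU145-shC cells, 26.2 times that of IFIT2 (12.3 times by its other probe), 38.6 times that of IFIT3, 24.7 times that of OASL and 2.85 times that of IFIT5. ISG20 went the other way, with a log2 difference (DU145-shC minus PC3-shC) of 0.79. For IFIT1, IFIT2, IFIT3, IFIT5 and OASL the DU145-shESS2 signal also stayed below the PC3-shC signal. These levels lie on different slides and scans as well as in different lines.

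**Figure D3:**
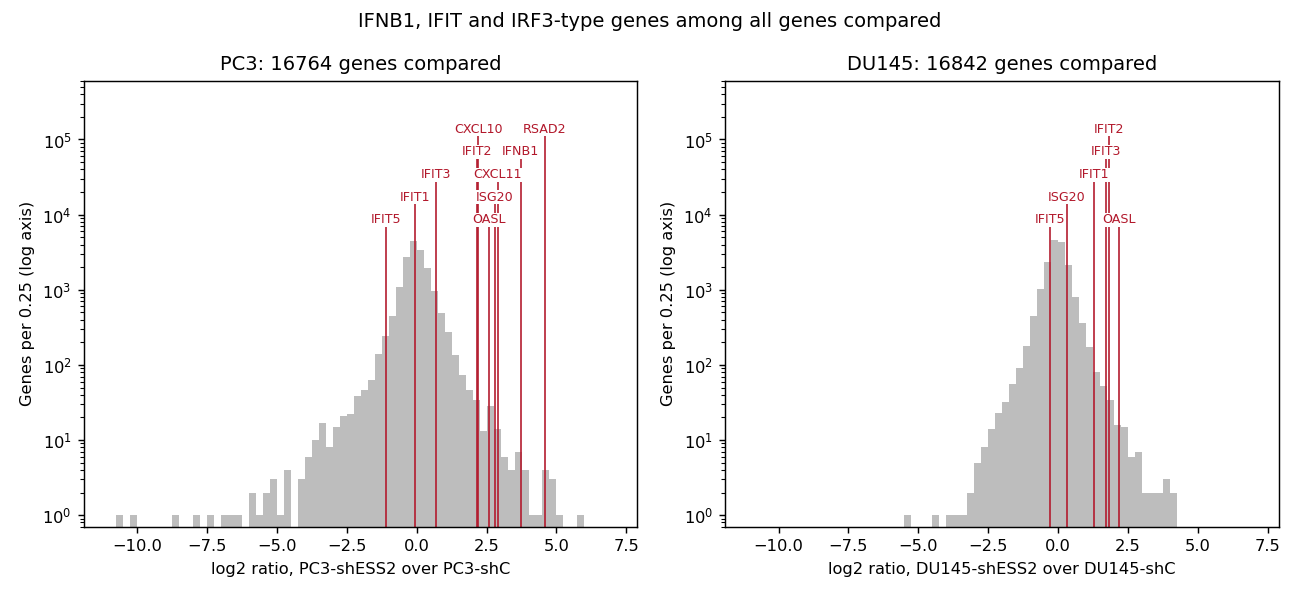
Distribution of the log2 ratio over all genes compared in PC3 cells (left) and DU145 cells (right), as the number of genes per 0.25 on a log axis, with a red line at each of the 10 genes that has a value there. In PC3 cells RSAD2, IFNB1 (at its lower bound), CXCL11, ISG20 and OASL lie in the upper tail and IFIT1 in the centre, while in DU145 cells OASL, IFIT2 and IFIT3 lie in the upper tail; the height of a line carries no value.

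Of 10 other genes that IRF3 can switch on, 8 were higher past 2-fold in PC3 cells and 0 were lower, with a median log2 ratio of 1.62. CCL5, a chemokine for T cells, had signals of 34.6 in PC3-shC and 2150 in PC3-shESS2 cells, a log2 ratio of 5.82. PMAIP1, which codes for the cell death protein NOXA, had a log2 ratio of 2.87 in PC3 cells, and HERC5, the ligase of ISG15, 2.25. The brightest probe of ATF3, a stress transcription factor, had 2.58, but its 4 probes ran from 0.30 to 2.66. TNFAIP3, an inhibitor of NF-κB, had 1.55, and the antiviral ZC3HAV1 had 1.09, with 2.78 by its other probe. CCL4 and CXCL9 were at least 3.25-fold and at least 2.15-fold higher. ISG15, the ubiquitin-like modifier, had 0.35, and CMPK2, a mitochondrial nucleotide kinase gene next to RSAD2, had 0.19. In DU145 cells 0 of the 8 compared were higher past 2-fold and 1, TNFAIP3 with −2.38, was lower. The DU145 median was 0.083, with ISG15 the highest at 0.94.

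Among the other interferon genes, 16 of 20 were matched to the array and 5 were compared in PC3 cells, of which 4 were higher past 2-fold. IFNL1, the gene of interferon-λ1, had signals of 15.6 in PC3-shC, 402 in PC3-shESS2, 4.66 in DU145-shC and 3.49 in DU145-shESS2 cells, a PC3 log2 ratio of 4.55. IFNL2 had signals of 64.9, 1060, 20.4 and 21.6 in the same order, with log2 ratios of 3.89 and 0.04. IFNL3, whose sequence is nearly that of IFNL2, was above background in PC3-shESS2 cells alone, with a log2 ratio of at least 3.63. IFNE was at least 1.60 on the log2 scale in PC3 cells and 0.83 in DU145 cells. IFNA4, the only interferon-α gene compared, had −0.07 and 0.49. None of the 3 compared in DU145 cells was past 2-fold.

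The genes that sense nucleic acids and activate IRF3 were mostly within 2-fold. Of 10 sensors and adaptors compared in PC3 cells, 0 were higher and 2 were lower past 2-fold, namely TLR3 (−1.41) and the RNA-binding kinase EIF2AK2 (−1.55). STING1, the adaptor for cytosolic DNA, had 0.98 in PC3 cells and 1.69 in DU145 cells, with signals of 1390 and 3030 in the PC3 cells and 1560 and 5160 in the DU145 cells, and was the sole sensor or adaptor higher past 2-fold there. The RNA sensors RIGI and IFIH1 had 0.66 and 0.08 in PC3 cells, and MAVS had 0.43, with its 4 probes from −0.25 to 0.43 and so of no settled sign. In DU145 cells RIGI had −0.04 and IFIH1 −1.22, the sole gene of the 11 compared to be lower past 2-fold. Among 12 kinases and IRF factors, 3 were lower in PC3 cells: the kinase IKBKE (−1.91), IRF7 (−2.10), and IRF2, which was at least 2.63-fold lower. IRF3 itself had −0.11 and 0.03, and TBK1 −0.12 and −0.04. In DU145 cells IKBKE (−1.03) and IRF8 (at least 2.19-fold lower) were past 2-fold. The 7 partners of IRF3 at the IFNB1 promoter (RELA, NFKB1, ATF2, JUN, HMGA1, EP300 and CREBBP) were all within 2-fold in both lines.

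Among 16 interferon receptor and JAK-STAT genes, IRF9 and IFNGR1 were lower past 2-fold in PC3 cells. IRF9, the DNA-binding partner of STAT2, had signals of 1160 in PC3-shC, 191 in PC3-shESS2, 153 in DU145-shC and 171 in DU145-shESS2 cells, a PC3 log2 ratio of −2.74. STAT2 had −0.97 and USP18, an inhibitor of the receptor, −0.95. IFNAR1 had −0.09 and IFNAR2 −0.46 (−1.13 to −0.36 over its 3 probes), while the interferon-γ receptor chain IFNGR1 had −1.21. JAK2 (1.46) and the STAT inhibitor PIAS1 (1.30) were the 2 that were higher past 2-fold. In DU145 cells 0 of the 16 were past 2-fold, with IRF9 at 0.12.

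Of 35 classical interferon-stimulated genes compared in PC3 cells, 25 were lower past 2-fold and 2 were higher, IFI44 (1.05) and DDX60 (1.12), with a median log2 ratio of −1.99. The contrast with the members entered their choice and is no independent result. MX1, an antiviral GTPase, had signals of 5190 in PC3-shC and 572 in PC3-shESS2 cells and a log2 ratio of −3.32, and IFITM1, which blocks viral entry, had −5.02. IFIH1 is also in a list already described. In DU145 cells 3 of the 26 compared were higher and 3 were lower, with a median of −0.12. The 3 higher were IFITM1 (1.92), IFITM2 (1.81) and IFITM3 (1.93), and the 3 lower were IFIH1, OAS3 (−1.11) and PSMB9 (−1.04). Scaling to the median, which moved the median of all genes in PC3 cells from −0.055 to −0.16, left 26 lower and 1 higher.

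**Figure D4:**
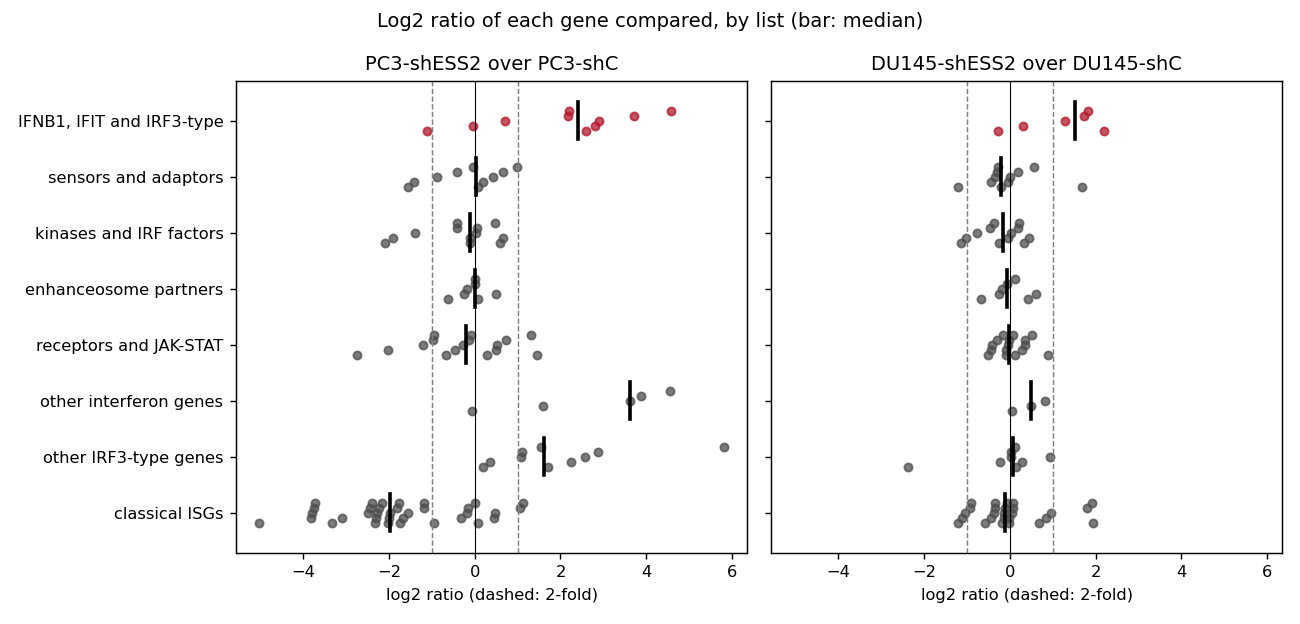
Log2 ratio of each gene compared (points) and the median of each list (bars) in PC3 cells (left) and DU145 cells (right), with dashed lines at 2-fold. In PC3 cells the members (red, median 2.40) and the other interferon genes (3.63) lie to the right and the classical interferon-stimulated genes (−1.99) to the left, and in DU145 cells the members (1.51) alone have a median past 2-fold; points of the same height are spread for sight only.

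Genes beside the members on the chromosome mostly stayed within 2-fold in PC3 cells, with 3 of 24 neighbours higher and 1 lower. Next to RSAD2 the probes for GRASLND and RNF144A, on the other side from CMPK2, were at least 1.90 and at least 1.94 on the log2 scale. CXCL9, in the cluster of CXCL10 and CXCL11, was the third. P2RX7, near OASL, was lower at −1.36. IFNA4 and KLHL9, on the same side of IFNB1, had −0.07 and −0.20, and FOCAD on its other side had −0.26. LIPA and SLC16A12, which flank the IFIT genes, had −0.11 and 0.05, and AEN and HAPLN3 beside ISG20 had 0.12 and 0.49. In DU145 cells GRASLND was lower at −1.42 and FOCAD-AS1, near IFNB1, at −1.03.

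The profile over 4 arrays nearest to the mean profile of the members was that of C1orf116, out of 17117 genes that 2 or more arrays measured well above background. Its signals were 383 in PC3-shC, 1730 in PC3-shESS2, 26.3 in DU145-shC and 40.5 in DU145-shESS2 cells, and its distance to the mean profile (Euclidean, on log2 values centred on each gene's mean) was 0.079. KCNQ1OT1 followed at 0.25, LINC02551 at 0.50, IL1RL1 at 0.54 and IL1R2 at 0.56. Each was higher after knockdown in PC3 cells, with log2 ratios of 2.03, 1.88, 1.91, 2.19 and 2.31. These 5 genes were picked for their nearness. The distance of the members to their own mean profile ran from 1.04 for CXCL10 and 1.07 for IFIT2 to 4.73 for RSAD2.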

How the data were processed

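RNA of 4 cell populations was measured on 1-colour Agilent arrays, 1 per condition. The authors deposited the scanner output (Agilent Feature Extraction 12.1.0.3 for PC3 and 12.0.3.1 for DU145), in which the intensity of each spot is background-subtracted and not scaled between arrays, and a scaled table that equals the processed intensity times 1 constant per array. Its columns had medians of 41.6, 47.5, 77.6 and 77.3. The software that set those constants is named in the methods without settings.

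Spots flagged as outliers were left out, spots of a probe averaged, log2 values taken and the 75th percentile of each array subtracted. The brightest probe, by its mean log2 value over the 4 arrays, stood for a gene. For CXCL10 this was the dimmer probe on both PC3 arrays. It was the brighter on the DU145 arrays, where neither probe was well above background. Of 58201 probes, 35080 were matched by accession to RefSeq symbols of GRCh38.p14; the PC3 and DU145 files carry different annotation releases. Genes entered a comparison if either array of the line measured them well above background, and a dim signal was raised to the lowest signal well above background on its array, which makes the fold a lower bound. Past 2-fold means a log2 ratio beyond 1. The members and the 13 lists were chosen with earlier results of these data known. Every member is named, and of the lists the genes past 2-fold in PC3 or DU145 as counts or by name, with a fixed set of pathway genes, the 5 nearest profiles and the neighbours of each locus. Alternatives were quantile normalization, scaling to the median, normexp (offset 50, on the median spot signal, as the mean was not used here), no filter, a filter on both arrays, plain dim signals, the mean or the dimmest of a gene's probes, the authors' scaled values and the inclusion of outlier spots. Some genes of the lists are counted but not reported here by name. The calculations were tested on simulated data. The tools were R 4.3.3 with limma 3.58.1, and Python 3.11.15 with numpy 2.4.6, pandas 2.3.3 and matplotlib 3.10.9.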

Additional observations from a re-analysis of the deposited data

Results flagged for a closer look

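4 genes of the lists moved past 2-fold in opposite directions in the lines, and no member did. The log2 ratio of TNFAIP3 was 3.93 higher in PC3 cells (1.55) than in DU145 cells (−2.38). For the IFITM genes the difference of the log2 ratios, PC3 minus DU145, was −6.94 for IFITM1, −3.54 for IFITM2 and −3.75 for IFITM3, with lower signals after knockdown in PC3 cells and higher ones in DU145 cells. IFITM2 and IFITM3 are very similar in sequence and IFITM1 less so, and whether their probes share signal was not tested. Each ratio rests on 1 array per condition, and the differences were not tested.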

How the results depend on the processing

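Of 16 member ratios, 0 reversed past 2-fold under 10 alternatives. IFIT1 in PC3 cells, near 0, changed sign, and IFIT5 in PC3 cells changed side of 2-fold. The count of members lower in PC3 cells was 1, and 0 with quantile normalization and 0 with normexp. The PC3 median of 2.40 was 2.30 with scaling to the median, 1.71 with normexp, 2.21 with the filter on both arrays, which left 9 members and 6 of them higher, and 2.49 with the authors' scaled values. The DU145 median of 1.51 was 1.64 with quantile normalization, 1.17 with normexp and 0.084 with no filter, which added the 4 members that were not well above background. Otherwise the cause was not tested. Of all genes, 650 higher and 649 lower in PC3 cells became 511 and 803 with scaling to the median and 792 and 535 with the authors' scaled values. The PC3 counts were 248 and 323 with normexp and 1431 and 1193 with no filter. In DU145 cells 397 higher and 416 lower became 139 and 77 with normexp and 959 and 1061 with no filter. IFNB1 in PC3 cells ranged from 1.36 with normexp to 4.17 with no filter. No paired analysis was possible because each condition has 1 array and the labels carry no replicate numbers, and no replicate could be left out. Signals near background limit the values of IFNB1, CXCL10 and CXCL11.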
